A study of Homo sapiens with 40 samples.

Results

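RNA from the top of sucrose gradients was compared between HEK293 cells that received an siRNA against CNOT1 and cells that received a control siRNA. The comparison rests on 8 of the 40 libraries of the study, the 4 subpolysomal libraries with control siRNA and the 4 with CNOT1 siRNA, each made from pooled gradient fractions 1 to 5. HEK293 is an established line of human embryonic kidney cells, and all groups share this line, a transfection and no stated genome edit. The knockdown was made with 1 siRNA, so effects of that sequence on other transcripts and effects of losing CNOT1 cannot be told apart. A further 8 libraries, input RNA from cells with the same siRNAs (n = 4 each), served only to ask where the subpolysomal effect differed from that of unfractionated RNA.

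A sucrose gradient separates mRNAs by the number of ribosomes they carry. The subpolysomal part holds free mRNPs, ribosomal subunits and monosomes, while well translated mRNAs sediment with polysomes. CNOT1 is the scaffold of the Ccr4-Not complex, which shortens poly(A) tails, hands mRNAs over to decapping and decay, and represses translation of mRNAs to which RNA-binding proteins or miRNA complexes bring it. A change in the subpolysomal pool can therefore come from the amount of an mRNA in the cell or from its distribution in the gradient, and the comparison of these 8 libraries alone does not separate them. A further mRNA class matters here. The mRNAs of ribosomal proteins and several translation factors begin with a 5′ terminal oligopyrimidine tract (TOP), a C at the cap followed by an unbroken run of C and T, through which growth signals move them in and out of polysomes.

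The libraries held 15914206 to 27306279 counts, with replicates 1 and 2 deeper than replicates 3 and 4 for both siRNAs. Reads carried no molecular identifiers. Counts are relative within a library, so fewer molecules of 1 class raise the others, and a change in total subpolysomal RNA per cell was not measured. Values are CPM, read counts relative to the depth of the library, scaled by TMM factors, which correct for such composition shifts. Labels do not say whether the replicates were separate cultures, so the tests measure the spread between these libraries. The HEK293 genes NEFM and VIM were abundant, with medians of 2147 and 232 CPM before TMM scaling, and CDH2, INA and LHX1 lay between 3.77 and 53.4, whereas PAX2 was near the detection limit at 0.111 to 0.787. Of 8 markers of leukocytes, hepatocytes, erythroid cells and fibroblasts, 6 stayed below 0.5 in each library, and COL1A1 and COL3A1 reached 5.47 and 2.70.

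CNOT1 mRNA (chromosome 16, 58553855 to 58663789 on GRCh37) was measured at 325, 328, 287 and 255 CPM in control replicates 1 to 4 and at 96.7, 89.8, 81.1 and 85.6 CPM after CNOT1 siRNA. Each knockdown library lay below each control library. With n = 4 in each group, means and SDs were 299 ± 34.6 and 88.3 ± 6.60 CPM, and the fitted difference was -1.76 on the log2 scale (SE 0.12, FDR 0.000205), with an FDR of 7.55e-11 when the replicate number was a block. In 1 fit that took in the polysomal libraries too, the estimate was -1.79 but missed the threshold (FDR 0.065). Some of those polysomal libraries were judged to go against their labels, as given with the processing below. Why the call was lost was not tested. The drop was smaller than in input RNA, where CNOT1 went from 693 ± 33.9 to 41.6 ± 1.98 CPM (log2 -4.06), and the difference between both effects was 2.29 (SE 0.15, FDR 6.00e-08).

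Of 15823 genes tested, 1986 (12.6%) were higher and 2408 (15.2%) lower after CNOT1 siRNA at an FDR below 0.05 (edgeR quasi-likelihood test). Most changes were modest: 362 higher genes (2.29% of those tested) and 467 lower genes (2.95%) changed by more than 1 on the log2 scale, and 90% of all genes tested had a log2 fold change between -0.89 and 0.83. With the replicate number as a block, 4279 genes (27%) were higher and 4936 (31.2%) lower, and all 4394 calls of the unblocked test were among them. An unadjusted p below 0.05 was reached by 6455 genes (40.8%). The libraries did not overlap between the siRNAs, with all 4 knockdown values above all 4 control values or below them, for 2148 (13.6%) and 2522 (15.9%) of genes. Replicates 1 and 2 alone gave 2631 higher and 2526 lower genes, and the shallower replicates 3 and 4 alone gave 2107 and 1770. No gene called in the 8 libraries was called in the opposite direction by either pair of replicates.

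The balance between higher and lower genes depended on the scaling. TMM factors were below 1 in the control libraries (0.888 to 0.957) and above 1 in the knockdown libraries (1.04 to 1.13). Scaling to library totals without a composition factor moved the median of all genes from -0.04 to 0.21 and gave 4287 higher and 993 lower genes. With no filter on low counts the split was 2509 higher and 1899 lower. The share of genes called lower was highest at the top of the abundance range, and was 15.1 to 15.6% in the bins from 1 to 300 CPM. Of the 91 genes with a mean of 1000 CPM or more, 73 were lower and 0 higher, with a median log2 fold change of -0.99 (edgeR). Among the 26 of these genes that belong to neither list of TOP mRNAs described next, 10 were lower and the median was -0.50.

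**Figure D1:**
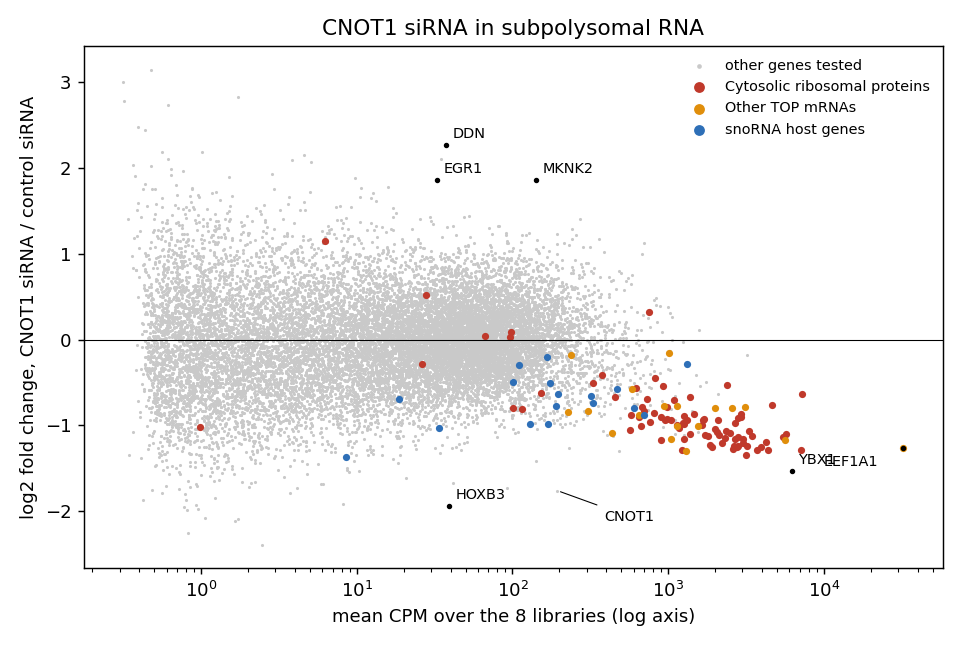
Log2 fold change of CNOT1 siRNA over control siRNA (y axis) against mean CPM over the 8 subpolysomal libraries (x axis, log scale) for the 15823 genes tested, 1 dot a gene. Ribosomal protein genes (red) and other TOP mRNAs (orange) fill the abundant end below 0, snoRNA host genes (blue) lie below 0, and named genes are marked in black.

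The mRNAs of cytosolic ribosomal proteins were lower almost throughout. Of 85 tested, 74 were lower (87.1%, against 15.2% of all genes tested), 2 were higher and 9 were not called, and the median log2 fold change was -0.97 against -0.04 over all genes tested. Of 18 other mRNAs known for a TOP start, mainly translation factors, 16 were lower and 0 higher, with a median of -0.84. Scaled to library totals, the medians were still -0.72 and -0.58 while the median of all genes was 0.21, and 62 and 13 members were called lower. To show what these mRNAs share, the bases around the annotated start are printed here from 6 bases upstream of the start, in RefSeq sequence of GRCh38.p14, 5′ to 3′ on the strand of the gene, with an unbroken pyrimidine run of 5 or more bases that begins with C at the first transcribed base in capitals. The first 7 belong to mRNAs that were lower, the next 2 to mRNAs that were lower without such a run, and the last 3 to mRNAs that rose. These examples were chosen after their values were seen.
RPS6 (chr9:19380221-19380242, minus strand): ttggccCTCTTTTCCgtggcgc
RPS3A (chr4:151099622-151099643, plus strand): cttccgCCCTTTTggctctctg
RPSA (chr3:39406714-39406735, plus strand): gcctgtCTTTTCCgtgctacct
RPL7A (chr9:133348212-133348233, plus strand): cctttcCTTTCTCTCTCCTCCC
EEF1A1 (chr6:73521017-73521038, minus strand): aacgttCTTTTTCgcaacgggt
EEF2 (chr19:3985448-3985469, minus strand): agcgttCTCTTCCgccgtcgtc
EIF4B (chr12:53006450-53006471, plus strand): ccgggtCTTTTgcgttctcttt
RPS4X (chrX:72277233-72277254, minus strand): agccccaatttctacgcgcacc
YBX1 (chr1:42682412-42682433, plus strand): cccgccattctcgctagttcga
MKNK2 (chr19:2051229-2051250, minus strand): cgcgcccggctcctctcagcgg
EGR1 (chr5:138465473-138465494, plus strand): agtcgcgagagatcccagcgcg
KRCC1 (chr2:88055768-88055789, minus strand): ctccgcCTCCTCCTCCCatcca

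The first bases of the MANE Select transcript, the reference transcript agreed between annotation groups, were then searched for this run (C followed by at least 4 C or T) across all coding genes tested. It was present in 61 of 85 ribosomal protein mRNAs (71.8%) and 16 of 18 other TOP mRNAs, against 5.44% of 12680 coding genes with such a transcript. Genes called lower held it in 10.8% and genes called higher in 4.87%. Outside the 2 lists of TOP mRNAs the share among lower genes was 6.77%, close to the background. Ribosomal protein mRNAs with and without the run had medians of -0.97 and -0.96. KRCC1 carries the run as well and rose. An annotated start can differ from the one used in HEK293 cells, so these matches describe the annotation only.

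RPSA, a protein of the small ribosomal subunit, had the largest decrease of the ribosomal protein mRNAs with at least 10 CPM. It was measured at 3959, 5356, 4507 and 4365 CPM in control replicates and at 2147, 2256, 1156 and 1631 CPM after CNOT1 siRNA. The lowest control library was far above the highest knockdown library, and the log2 fold change was -1.34 (SE 0.21, FDR 0.00185). RPL7A, a protein of the large subunit, followed with 5237, 6107, 7091 and 6569 against 2696, 2512, 2475 and 2554 CPM. The knockdown libraries differed from each other by only 96.6 CPM (SD), and the fold change was 2.44-fold lower (log2 -1.29, SE 0.13, FDR 0.000519). RPS6 and RPS3A, picked after their values were seen for their start sequences, were 2.42-fold and 2.43-fold lower without overlap.

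The exceptions, named after their values were seen, included several paralogues of ribosomal protein genes. RPL39L rose from 3.93 to 8.66 CPM (log2 1.15, FDR 0.00532) and RPL26L1 from 23.1 ± 3.54 to 33.0 ± 1.02 CPM (log2 0.52, FDR 0.0145). RPL22L1, RPL36AL, RPL7L1 and RPS27L were not called, with log2 fold changes of 0.03, 0.09, 0.32 and 0.04, and the replicate block called RPL7L1 higher (FDR 0.00232). FAU, RPL17, RPL36, RPLP1 and RPS28 were not called either, at -0.62, -0.29, -0.56, -0.67 and -0.51, and the block called the first 4 of these 5 lower. Ribosomal protein genes have many processed pseudogenes, and how reads that match both were counted is not given in the sources used here. Of 44 tested rows whose symbol names such a pseudogene, 20 were lower and 1 higher (median -0.84).

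Among the other TOP mRNAs, EEF1A1, the elongation factor that brings tRNAs to the ribosome, was the most abundant of those described here. Its values were 41970, 59260, 36973 and 45089 CPM with control siRNA and 20446, 22726, 14979 and 18209 CPM with CNOT1 siRNA. There was no overlap between the siRNAs, and the log2 fold change was -1.26 (SE 0.19, FDR 0.00183). EIF4B, a cofactor of the eIF4A helicases, had 1845, 2107, 1606 and 1836 against 772, 746, 749 and 740 CPM. This was the largest decrease of the list and one of the tightest (log2 -1.30, SE 0.11, FDR 0.000352). PABPC1, the cytoplasmic poly(A)-binding protein, went from 7782 ± 2317 to 3464 ± 1130 CPM (log2 -1.17, FDR 0.0101). The 3 translation initiation factor 3 subunits EIF3E, EIF3F and EIF3L had log2 fold changes of -0.88, -1.08 and -1.16. Only NPM1 (-0.16, FDR 0.38) and VIM (-0.18, FDR 0.245) of the 18 were not called, and VIM was called lower with the block (FDR 0.038).

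The share of the libraries taken by these mRNAs was compared as well. Ribosomal protein mRNAs took 17.1, 19.5, 21.2 and 19.8% of all counts in control replicates 1 to 4 and 12.1, 10.9, 10.8 and 11.3% after CNOT1 siRNA. Every knockdown library was lower than every control library, with means of 19.4 ± 1.71% and 11.3 ± 0.561% (exact permutation test, two-sided, p = 0.0286, the smallest that 4 against 4 libraries allow). The other TOP mRNAs went from 7.03 ± 1.01% to 3.87 ± 0.314% of counts (n = 4, exact permutation p = 0.0286). These shares do not depend on the scaling factors. Within the 4 deeper libraries the ribosomal protein share was 17.1 and 19.5% against 12.1 and 10.9%, and within the 4 shallower ones 21.2 and 19.8% against 10.8 and 11.3%.

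**Figure D2:**
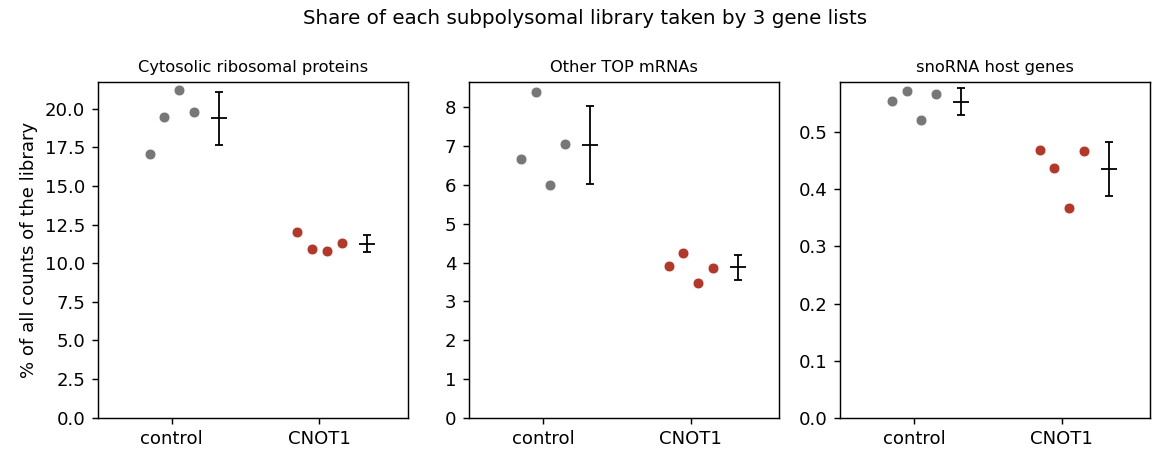
Percent of all counts (y axis, from 0) taken by ribosomal protein genes, other TOP mRNAs and snoRNA host genes in each subpolysomal library. Dots are replicates 1 to 4 from left to right, bars are mean and SD (n = 4), and in each panel the 4 knockdown libraries lie below the 4 control libraries.

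Several classes of noncoding RNA also leaned lower, beside 15.2% lower and 12.6% higher of all genes tested. snoRNA host genes are transcripts that release small nucleolar RNAs from their introns, and many of them also begin with a TOP tract. Of 17 tested, 14 were lower and 0 higher, with a median of -0.69, and 9 were called lower when scaled to library totals. GAS5, a known member named after its values were seen, had 752, 820, 787 and 704 CPM in control replicates and 498, 475, 366 and 423 CPM in knockdown replicates. The groups were well apart (log2 -0.80, SE 0.12, FDR 0.00183). SNHG10 and SNHG6, the members with the largest decreases among those of at least 10 CPM, fell from 45.1 ± 3.63 to 22.1 ± 4.69 CPM and from 224 ± 23.3 to 113 ± 17.4 CPM. Of 80 rows annotated as snoRNAs, 32 were lower and 0 higher (median -0.69), of 27 miRNA rows 8 were lower and 0 higher, and of 523 lncRNAs 138 (26.4%) were lower and 28 (5.35%) higher. By contrast, 12814 protein-coding genes were balanced, with 1854 higher and 1675 lower. Of 8 snRNA rows 1 was higher and 0 lower. In input RNA the snoRNA, miRNA and lncRNA rows were lower too, with medians of -0.55, -0.50 and -0.23. Libraries were made with an mRNA kit that selects poly(A) RNA, and whether rows for short RNAs hold reads of longer host transcripts was not tested.

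RNAs known to stay in the nucleus were measured beside these. MALAT1 went from 378 ± 64.3 to 210 ± 42.7 CPM (log2 -0.85, FDR 0.00541) and PVT1 from 28.7 ± 2.35 to 18.8 ± 2.22 CPM (log2 -0.61, FDR 0.00711). NEAT1 and KCNQ1OT1 had log2 fold changes of -0.50 and -0.41 and were called only with the block (FDR 9.17e-05 and 0.00292). The lysates had been cleared of nuclei, and whether nuclear leakage differed between the siRNAs was not tested. The 7SL and 7SK RNAs, abundant RNAs without poly(A) tails, varied widely between libraries. RN7SL1 ranged from 178 to 775 CPM in control and from 176 to 479 CPM in knockdown libraries and was not called (FDR 0.648), while RN7SK fell from 12.9 ± 10.5 to 3.36 ± 1.59 CPM (log2 -1.92, SE 0.59, FDR 0.0347), with overlapping groups. The RN7SK call was lost without control replicate 3 (log2 -1.22, FDR 0.0874) and in replicates 1 and 2 alone (log2 -0.33, FDR 0.625). It was also lost without control replicate 4 or knockdown replicate 1, 3 or 4, where the log2 fold change stayed between -1.88 and -1.75. The block called RN7SK lower (FDR 0.000949).

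Mitochondrially encoded mRNAs, which are translated inside mitochondria, were lower in 8 of 12 cases and higher in 0 (median -0.54). That was 66.7% lower, against 15.2% of all genes tested, and the median in input RNA was alike at -0.52. Their share of all counts went from 0.0371 ± 0.0049% to 0.0296 ± 0.0033%, with overlapping groups (n = 4, exact permutation p = 0.0857). MT-ND1, a subunit of respiratory complex I, went from 21.2 ± 4.93 to 11.9 ± 2.22 CPM (log2 -0.83, FDR 0.0129) and MT-ND5 from 17.0 ± 0.986 to 10.8 ± 0.742 CPM (log2 -0.66, FDR 0.0042). Without control replicate 1, 2 or 4, and with library totals, 3 members were called, without knockdown replicate 2 or 3 the counts were 5 and 4, and replicates 3 and 4 alone gave 4.

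HOX genes, which encode the homeodomain factors of body patterning, were lower in 16 of 34 cases and higher in 3 (median -0.50). These were 47.1% and 8.82%, against 15.2% and 12.6% of all genes tested. HOXB3 had the largest decrease of all genes with at least 10 CPM and no overlap. It was measured at 55.7, 52.6, 70.1 and 69.1 CPM in control replicates and at 15.9, 14.5, 13.1 and 21.2 CPM after CNOT1 siRNA. The highest knockdown value was far below the lowest control value (log2 -1.94, SE 0.17, FDR 0.000352). HOXB6, whose locus overlaps that of HOXB3 (chromosome 17, 46673113 to 46682354 and 46626232 to 46682274 on GRCh37), went from 31.1 to 10.2 CPM (log2 -1.61). HOXB5 and HOXB8, below the 10 CPM limit and named after their values were seen, had log2 fold changes of -1.68 and -1.25. HOXD13 was among the 3 that rose, from 108 ± 7.50 to 141 ± 21.4 CPM (log2 0.39, FDR 0.039), and the other 2 were HOXD1 and HOXD8. Only 1 HOX gene was called higher without control replicate 3 or 4 or without knockdown replicate 2 or 4, and the HOXD13 call was lost in these settings and without knockdown replicate 1. The decreases stood beside similar ones in input RNA, where the median of 35 HOX genes was -0.44.

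The remaining genes with the largest decreases had varied roles. List members given here and in the lists that follow beyond the 2 largest changes each way were named after their values were seen. YBX1, an abundant mRNA-binding protein that packages mRNPs, was measured at 7347, 10974, 7732 and 10819 CPM with control siRNA and at 3138, 4297, 2004 and 3336 CPM with CNOT1 siRNA. It fell 2.89-fold without overlap (log2 -1.53, SE 0.23, FDR 0.00183), although its printed start has no TOP run. MAP3K13, a kinase upstream of JNK, had 137, 169, 122 and 143 against 47.4, 57.1, 28.0 and 38.6 CPM. This was a 3.33-fold decrease (FDR 0.000653). KLF8, a zinc finger transcription factor, went from 205 ± 29.8 to 76.8 ± 5.80 CPM, PAPPA, a protease of IGF-binding proteins, from 15.3 ± 3.83 to 5.30 ± 1.33 CPM, and TPTEP1, a transcribed pseudogene, from 63.3 ± 11.0 to 19.9 ± 2.39 CPM. Numbered ZNF genes, the large family of zinc finger repressors, were lower in 130 of 441 cases (29.5%, against 15.2% of all genes tested) and higher in 16, with a median of -0.33. ZNF333 fell by 1.23 and ZNF804A, a gene linked to neurons, rose by 1.32 on the log2 scale. Numbered ZNF genes took 1.92% of all counts with control and 1.88% with CNOT1 siRNA, with overlapping groups (n = 4, exact permutation p = 0.771). The count of lower ZNF genes was unstable. It was 264 with the block, 39 when scaled to library totals, 80 with the shallower replicates alone, 50, 72 and 81 without control replicate 1, 2 or 4, and 74 and 78 without knockdown replicate 3 or 4.

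DDN, which encodes the postsynaptic and kidney protein dendrin, had the largest increase of genes with at least 10 CPM and no overlap. Its values were 11.6, 11.9, 10.9 and 17.0 CPM with control siRNA and 61.6, 72.6, 50 and 62.8 CPM with CNOT1 siRNA. The 4.81-fold difference was larger than the spread of either group (log2 2.27, SE 0.17, FDR 0.000352). PVRL4, the cell adhesion molecule nectin-4, had 10.8, 14.0, 12.7 and 14.9 against 44.5, 44.9, 85.2 and 51.4 CPM. Replicate 3 stood above the other knockdown libraries, and all 4 were above the controls (log2 2.11, SE 0.22, FDR 0.000555). MKNK2, a kinase that phosphorylates the cap-binding protein eIF4E, had 41.4, 39.8, 86.2 and 76.6 against 169, 182, 261 and 273 CPM. In both groups the shallower replicates 3 and 4 were higher than replicates 1 and 2, and within each of these pairs the knockdown was higher (log2 1.86, SE 0.27, FDR 0.00161).

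The other 5 of the 8 largest increases were EGR1, KRCC1, APOLD1, SIX2 and PROK2. KRCC1, a lysine-rich coiled-coil protein, had 6.89, 8.45, 6.23 and 7.15 against 23.3, 33.0, 22.8 and 19.8 CPM (log2 1.78, FDR 0.000543). APOLD1, an endothelial early response gene, rose 3.39-fold, SIX2, a homeodomain factor of kidney progenitors, 3.26-fold and PROK2, a secreted prokineticin, 3.18-fold, each without overlap and below 25 CPM in each library. EGR1, an immediate early transcription factor with a short-lived mRNA, had 11.4, 11.5, 16.3 and 17.5 against 31.8, 18.6, 125 and 29.4 CPM. Knockdown replicate 3 stood far above the rest, and the spread was wide (log2 1.85, SE 0.52, FDR 0.0237). The log2 fold change was 0.92 without that library (FDR 0.0223). The call was lost without control replicate 1 (log2 1.82, FDR 0.0541) and in the fit over all gradient libraries (FDR 0.103).

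**Figure D3:**
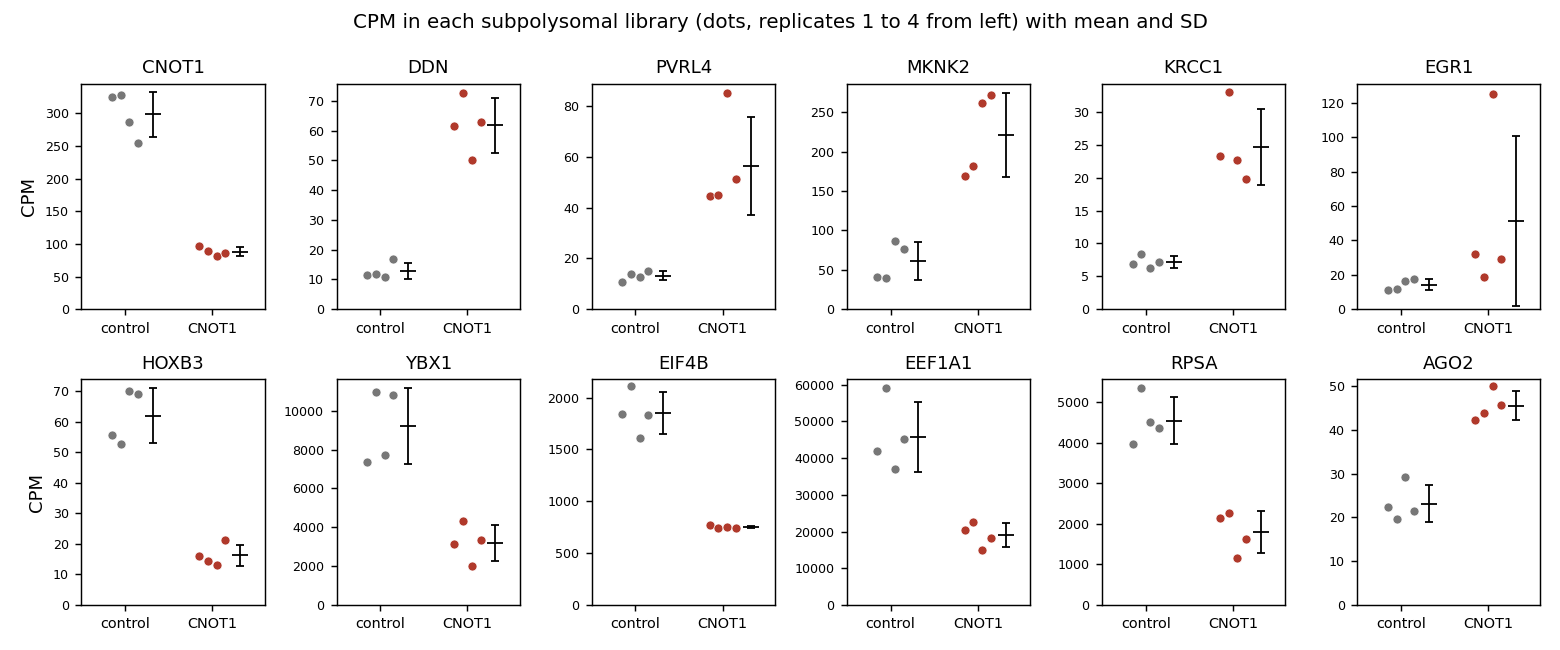
CPM (y axis, linear from 0, a scale per panel) of 12 genes in the 8 subpolysomal libraries. Dots are replicates 1 to 4 from left to right for control and CNOT1 siRNA, and bars are mean and SD (n = 4). The groups do not overlap in any panel, and knockdown replicate 3 stands apart for EGR1 and PVRL4.

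Immediate early genes as a list did not move one way. Of 33 tested, 5 were higher and 6 lower, with a median of 0.14. These shares, 15.2% and 18.2%, were near the 12.6% and 15.2% of all genes tested. JUND and JUN, subunits of the AP-1 factor, rose from 28.2 ± 9.67 to 76.2 ± 16.6 CPM and from 210 to 348 CPM. DUSP5, FOSB and EGR1 were the others that rose. ID2, an inhibitor of differentiation, fell from 140 ± 17.2 to 81.2 ± 2.63 CPM, and CTGF, a matricellular growth factor, from 15.2 ± 2.29 to 9.61 ± 1.57 CPM. KLF6, KLF10, DUSP4 and CYR61 were the others that fell. The CTGF call was lost without control replicate 1 or 2 and with library totals (log2 -0.41, FDR 0.0887). With the block 11 members were higher and 11 lower, and without control replicate 1 the number higher was 3.

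The machinery of the Ccr4-Not pathway itself was examined by role, beside 12.6% higher and 15.2% lower of all genes tested. Among 8 core and accessory subunits, CNOT1 was the 1 called lower and RQCD1 (CNOT9) the 1 called higher, from 142 ± 6.35 to 173 ± 6.94 CPM (log2 0.28, FDR 0.041). The RQCD1 call was lost without any 1 library other than control replicate 2 (FDR 0.0533 to 0.0948), with no filter on low counts and within either pair of replicates. With the block 5 were higher, namely CNOT2, RQCD1, CNOT10, CNOT11 and CNOT4. Among 12 deadenylases, CNOT6L (log2 0.54, FDR 0.00594) and CNOT8 (log2 0.46, FDR 0.031), catalytic subunits of the complex, rose, while PAN2 (log2 -0.60, FDR 0.00504), TOE1 (log2 -0.58, FDR 0.00706) and ANGEL1 (log2 -0.40, FDR 0.0446) fell. The CNOT8 call was lost without control replicate 3 or 4 or knockdown replicate 2 or 4, where the number higher was 1. CNOT6 and CNOT7, the alternative catalytic subunits, had log2 fold changes of -0.20 and -0.02 and were not called, and the block called CNOT6 lower (FDR 0.0146). With the block 6 deadenylases were lower, and with library totals 0. Of 5 BTG and TOB proteins, antiproliferative adapters that bind the deadenylases, BTG1 (log2 0.48) and TOB2 (log2 0.45) rose and 0 fell, and 1 was called without control replicate 1 or knockdown replicate 1 or 4. TOB2 lost its call in these settings, without control replicate 2 or knockdown replicate 3 and in the fit over all gradient libraries (FDR 0.167).

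RNA-binding proteins that bring Ccr4-Not to its mRNAs were higher in 9 of 25 cases (36.0%, against 12.6% of all genes tested) and lower in 2, with a median of 0.19. AGO2, the Argonaute protein of miRNA complexes, had 22.3, 19.5, 29.3 and 21.5 CPM with control siRNA and 42.4, 43.9, 50 and 45.8 CPM with CNOT1 siRNA. The groups were apart (log2 0.98, SE 0.14, FDR 0.00148). PUM2, a Pumilio repressor, had 223, 254, 182 and 179 against 428, 445, 322 and 357 CPM, again without overlap (log2 0.89, SE 0.15, FDR 0.00269). TNRC6A and TNRC6B, GW182 proteins bridging AGO and CNOT1, rose by 0.43 and 0.74, and SAMD4B, CPEB1, BICC1 and MEX3C were among the others that rose. CPEB2, a cytoplasmic polyadenylation factor, fell from 25.7 ± 2.89 to 12.8 ± 1.61 CPM (FDR 0.00143), and ZFP36L1, which binds AU-rich elements, fell by 0.46. The ZFP36L1 call was lost without control replicate 4 (FDR 0.0594) and with library totals (log2 -0.21, FDR 0.182). With the block 14 were higher and 5 lower.

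Few factors of decapping and of the cap-binding complex were called without the block, where 12.6% of all genes tested were higher and 15.2% lower. Of 12 decapping and P-body genes LSM1 rose (log2 0.50, FDR 0.00599) and DCP2 fell (log2 -0.44, FDR 0.0305). The DCP2 call was kept without control replicate 4 or knockdown replicate 1 but lost without any other single library (FDR 0.0661 to 0.13), and with library totals (log2 -0.19, FDR 0.295). With the block 6 of the 12 were higher and 2 lower, and with library totals 7 were higher and 0 lower. DDX6, the helicase that CNOT1 binds, was at 122 ± 24.8 and 157 ± 20.9 CPM (log2 0.37, FDR 0.102), and was called higher with the block (FDR 0.000291). Of 14 eIF4A paralogues and cap-binding factors EIF4A3 and EIF4G2 were higher and EIF4B and EIF4G3 lower. Only EIF4B of these 4 kept its call without each single library. EIF4G3 lost it except without knockdown replicate 2 or 3, and with library totals (log2 -0.13, FDR 0.393), EIF4G2 lost it without control replicate 3 or 4 or knockdown replicate 1, 2 or 3, and EIF4A3 without knockdown replicate 1 or 2. With the block 4 of the 14 were higher and 5 lower. EIF4A2 was at 690 and 526 CPM (log2 -0.39, FDR 0.0528) and EIF4A1 at 14.1 and 11.0 CPM (log2 -0.35, FDR 0.118). Both were called lower with the block (FDR 0.000241 and 0.0102). EIF4A1 was far below EIF4A2 in input RNA too (4.21 and 3.40 against 303 and 274 CPM). Whether the counting left out reads of EIF4A1 was not tested.

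Integrated stress response genes, the targets of ATF4, were higher in 7 of 25 cases and lower in 0, with a median of 0.22. That was 28% higher, against 12.6% of all genes tested. PSPH, an enzyme of serine synthesis, rose from 33.4 ± 3.13 to 56.1 ± 4.52 CPM (log2 0.75, FDR 0.00179). SLC7A5, an amino acid transporter, had 88.9, 75.1, 161 and 128 against 183, 161, 303 and 279 CPM. Its groups overlapped at 161 CPM, both had higher values in replicates 3 and 4, and its log2 fold change was 1.03 (FDR 0.017). CHAC1, TRIB3, PSAT1, MTHFD2 and CEBPB were the others. The number higher dropped to 3 without knockdown replicate 3 or 4 and to 4 without control replicate 1, and was 11 with the block, which also called 3 lower. Of 18 ER chaperones and genes of the unfolded protein response, SEL1L (log2 0.89) and HYOU1 (log2 0.59) rose (11.1%) and 0 fell. The block called 9 of them higher and 3 lower, and library totals 11 higher and 0 lower.

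DNA replication genes leaned the other way. Of 21 MCM helicase and origin factors 8 were lower (38.1%, against 15.2% of all genes tested) and 0 higher, with a median of -0.29. MCM5 had 116, 94.1, 181 and 152 CPM with control siRNA and 62.0, 53.5, 73.6 and 74.8 CPM with CNOT1 siRNA, without overlap (log2 -1.04, SE 0.20, FDR 0.00428). MCM3 went from 303 ± 10.2 to 175 ± 12.8 CPM (log2 -0.79, FDR 0.000766). MCM4, MCM6, MCM7, CDC45, ORC6 and GINS4 were the others. The count was 16 with the block, 13 in the fit over all gradient libraries, 5 without control replicate 1 and 4 when scaled to library totals.

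The remaining lists were near or below the background of 12.6% higher and 15.2% lower, or mixed, and their counts moved with the setting. Of 22 let-7 targets and oncofetal mRNAs 5 were higher and 2 lower. E2F5, a cell cycle transcription factor, rose from 27.8 ± 4.49 to 55.3 ± 7.96 CPM, and CCND2, a G1 cyclin, fell from 120 ± 14.4 to 74.3 ± 12.7 CPM. Of 11 G1 cyclins and CDK inhibitors CCND3 (log2 0.89) and CCNE1 (log2 0.66) rose and CCND2 fell. Of 24 cholesterol synthesis and uptake genes 3 were higher, among them DHCR7 (log2 0.89), and 5 lower, among them HMGCS1 (log2 -0.97) and FDPS (log2 -0.53). Of 18 p53 targets 3 were lower and 0 higher, against 7 lower and 4 higher with the block. Of 34 proteasome subunits 3 were lower and 0 higher, against 5 lower and 6 higher with the block, 0 lower and 10 higher with library totals, and 1 lower without any 1 library other than control replicate 1. Of 74 mitochondrial ribosomal proteins 4 were higher and 4 lower, with a median of 0.03 against -0.97 for their cytosolic counterparts. Of 23 replication-dependent histones 2 were higher, and of 35 collagens and laminins 1 was higher and 2 lower. With the block the counts higher and lower were 8 and 5 for let-7 targets, 4 and 3 for cyclins and CDK inhibitors, 8 and 12 for cholesterol genes, 22 and 17 for mitochondrial ribosomal proteins, 8 and 1 for histones and 4 and 11 for collagens and laminins. With library totals they were 13 and 0, 6 and 0, 9 and 1, 30 and 3, 8 and 0, and 4 and 0 in the same order. The number of lower cholesterol genes was 3 without control replicate 1, 2 or 3 or knockdown replicate 3 or 4. No collagen or laminin was lower without control replicate 3 or 4 or knockdown replicate 1, 2 or 4. Higher histones numbered 5 without knockdown replicate 2, and 1 without control replicate 2 or 4 or knockdown replicate 1 or 3.

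Messenger RNA features were compared for one transcript per gene, that with the longest coding sequence. The median 5′UTR was 213 bases in genes called higher, 127 in genes called lower and 156 over all 12738 genes with a coding transcript. With genes in 5 bins by 5′UTR length, from the shortest (up to 58 bases) to the longest (358 bases or more), the share of genes called higher went from 8.47 to 20.0% and the share called lower from 16.6 to 11.1%. The median 3′UTR was 1558 bases in higher, 1172.5 in lower and 1193.5 in all genes, and coding length was 1518, 1365 and 1455 bases. The GC content of the 5′UTR was 68.9, 63.6 and 66.5%. GC content at the third codon position differed little (57.0, 56.6 and 58.7%). Genes are not independent replicates, and these medians are given without a test.

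Since Ccr4-Not acts downstream of miRNAs, sites matching the seed (bases 2 to 8, in capitals) of miRNA families were counted in the 3′UTRs. The mature sequences from RefSeq are printed for 3 families to show what was searched.
hsa-let-7a-5p: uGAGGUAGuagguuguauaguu
hsa-miR-17-5p: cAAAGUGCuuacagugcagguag
hsa-miR-19b-3p: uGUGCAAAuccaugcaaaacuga
The 7-base site for let-7a (CTACCTC) was present in 10.8% of genes called higher, 12.3% of genes called lower and 10.6% of 12633 genes with a 3′UTR, or 0.0562, 0.0725 and 0.0641 sites per kb. For miR-17 (GCACTTT) the shares were 26.2, 26.3 and 23.8%, or 0.172, 0.203 and 0.181 sites per kb. For miR-19b (TTTGCAC) they were 19.7, 13.8 and 14.98%, or 0.112, 0.0857 and 0.0959 sites per kb of 3′UTR. Also counted were sites for miR-92a (0.07976, 0.07865 and 0.07715 per kb) and miR-10a (0.08368, 0.1016 and 0.08721). Those for miR-1 occurred 0.07531, 0.08049 and 0.07923 times per kb. The AU-rich pentamer ATTTA occurred 2.39, 2.21 and 2.32 times per kb, and the Pumilio motif TGTANATA 0.273, 0.225 and 0.244 times. Shares of genes with a site rise with the length of the 3′UTR, which was longer in genes called higher, so rates per kb are given beside them, without a test.

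The difference between the subpolysomal and the input effect of CNOT1 siRNA was tested in 16 libraries in 1 fit over both fractions. Input values, differences and, unless stated otherwise, list medians come from this fit. Subpolysomal values of single genes in the text, except that of RPL4, come from the 8-library fit. They are thus scaled separately from the input values. Of 17105 genes, 775 (4.53%) had a higher and 878 (5.13%) a lower effect in subpolysomal RNA than in input (edgeR). Blocking on the replicate number gave 1337 (7.82%) and 1405 (8.21%). Library totals without a composition factor gave 2291 and 409, RLE factors 1055 and 649, and DESeq2 1479 and 983.

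**Figure D4:**
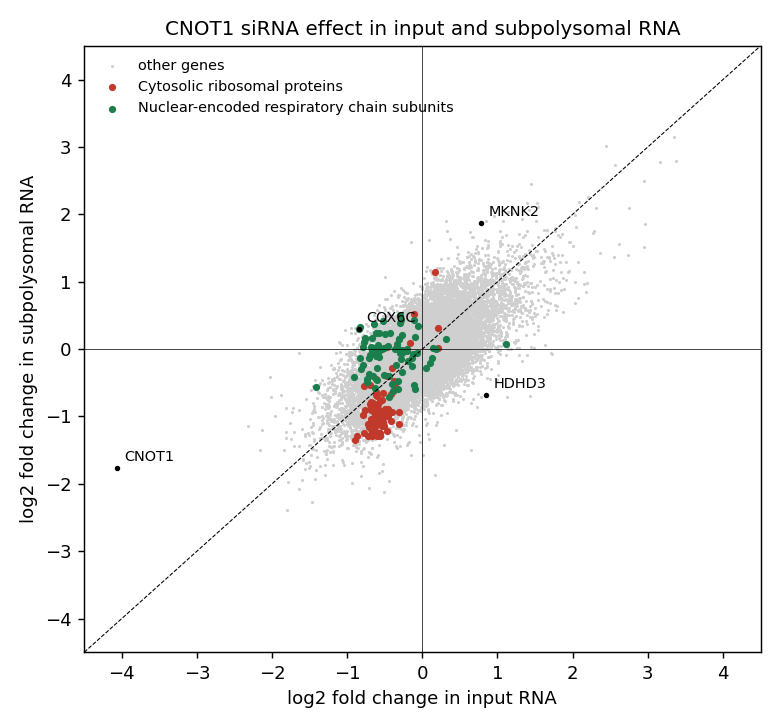
Log2 fold change of CNOT1 siRNA over control siRNA in input RNA (x axis) and in subpolysomal RNA (y axis) from the fit of 16 libraries, 1 dot a gene, with the line of equal effects dashed. Ribosomal protein genes (red) lie mostly below the line, respiratory chain genes (green) lie mostly above it near 0 on the y axis, and CNOT1 lies far above it.

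Most ribosomal protein mRNAs were lower in both pools, with the lower median in the subpolysomal one. In the same fit their median was -0.59 in input and -0.96 in subpolysomal RNA, 74 of 86 were lower in input (18% of all genes tested), and for 26 the subpolysomal effect was lower at an FDR below 0.05, against 5.13% of all genes tested (38 with the block, 16 with library totals). RPL4, the member with the largest such difference, named after its values were seen, fell by 0.31 in input and fell by 1.11 in subpolysomal RNA on the log2 scale (difference -0.80, SE 0.16, FDR 0.00431). For RPSA the difference was not called (-0.44, FDR 0.254). Other TOP mRNAs had medians of -0.35 and -0.83, and 7 of 18 had a lower subpolysomal effect (11 with the block, 5 with library totals). EIF4B went from 921 to 751 CPM in input (log2 -0.29) against its 2.46-fold decrease in subpolysomal RNA, a difference of -1.01 (SE 0.14, FDR 0.000697). For snoRNA host genes both medians were alike at -0.73 and -0.69, and 0 of 17 differed.

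Nuclear-encoded subunits of the respiratory chain showed the opposite arrangement. In the fit of 16 libraries their median was -0.44 in input and -0.03 in subpolysomal RNA, and 53 of 82 were lower and 2 higher in input, against 18% and 19.5% of all genes. In the fit of the 8 subpolysomal libraries alone, 12 of 81 were lower and 2 higher (median -0.04), and 21 and 14 with the block. Scaled to library totals, these 8 libraries gave 2 lower and 17 higher, with a median of 0.22, and without control replicate 1 or 2 the number lower was 4 or 6. The subpolysomal effect was higher than the input effect for 25 of 82 and lower for 0 (4.53% of all genes tested were higher), with a median difference of 0.41. This count was 33 with the block, 28 with RLE factors and 43 with library totals. COX6C, a subunit of cytochrome c oxidase picked after its values were seen, had 92.6, 83.4, 115 and 84.6 CPM with control siRNA and 130, 105, 132 and 93.6 CPM with CNOT1 siRNA in subpolysomal RNA. These groups overlapped (log2 0.30, FDR 0.153, called higher with the block at an FDR of 0.00165), while in input it fell from 131 ± 5.99 to 73.2 ± 13.1 CPM (log2 -0.84, difference 1.14, SE 0.19, FDR 0.0016). NDUFA1 of complex I and ATP5J of the ATP synthase had differences of 1.16 and 1.02.

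Immediate early genes and BTG/TOB mRNAs had higher medians in input than in subpolysomal RNA. The medians of the 33 immediate early genes were 0.59 and 0.13, 19 were higher in input (19.5% of all genes tested), and 4 had a lower subpolysomal effect (10 with the block). The 5 BTG and TOB mRNAs were all higher in input with a median of 0.88, against 0.43, and 3 had a lower subpolysomal effect, among them TOB2 (difference -0.62, FDR 0.0121). The RNA-binding proteins that recruit Ccr4-Not had similar medians of 0.12 and 0.18, yet AGO2 differed. It was at 65.9 ± 3.66 and 71.5 ± 2.73 CPM in input (log2 0.12, FDR 0.342), and its effect in subpolysomal RNA was higher by 0.86 (SE 0.13, FDR 0.00115). MKNK2 and PROK2 also rose more in subpolysomal RNA (difference 1.09, FDR 0.0134, and 0.98, FDR 0.0315), whereas for DDN, PVRL4, KRCC1 and APOLD1 the difference was between -0.20 and 0.16 and not called.

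**Figure D5:**
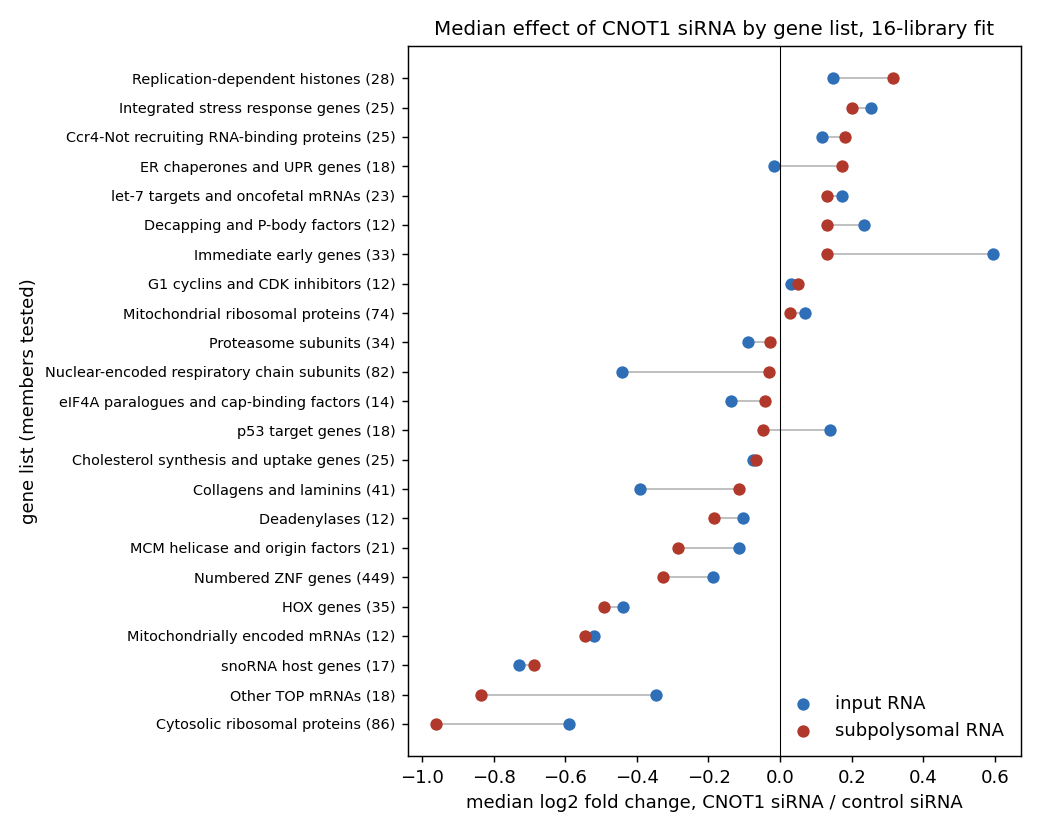
Median log2 fold change of CNOT1 siRNA over control siRNA (x axis) of each gene list with at least 11 members tested, in input (blue) and subpolysomal RNA (red), from the fit of 16 libraries. The distance between dots is widest for other TOP mRNAs, immediate early genes, respiratory chain subunits and ribosomal proteins.

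Beside CNOT1, the genes with the largest differences in favour of subpolysomal RNA were SPG21, TSPAN33 and ARSB. SPG21, an endosomal protein, had 75.7, 96.2, 79.0 and 72.9 CPM with control siRNA and 125, 177, 115 and 128 CPM with CNOT1 siRNA in subpolysomal RNA, a rise without overlap (log2 0.75, FDR 0.0055). In input it fell from 97.7 ± 4.04 to 70.8 ± 3.19 CPM (log2 -0.46), and the difference was 1.21 (SE 0.18, FDR 0.00089). TSPAN33, a tetraspanin, and ARSB, a lysosomal sulfatase, also rose in subpolysomal RNA, with differences of 1.20 and 1.18. The rise of ARSB within subpolysomal RNA lost its call without control replicate 1 or knockdown replicate 1, 2 or 4 (FDR 0.0505 to 0.0615). HDHD3, a hydrolase-domain protein, was the clearest opposite. It fell from 64.9 ± 7.35 to 40.6 ± 7.58 CPM in subpolysomal RNA and rose from 17.3 ± 0.831 to 31.1 ± 1.88 CPM in input, a difference of -1.53 (SE 0.15, FDR 5.41e-05). WFS1, RNF149 and CCRN4L (NOCT, a relative of the deadenylases) were higher in input by 0.74, 0.92 and 1.01 and were not called in subpolysomal RNA, where their log2 fold changes were -0.68, -0.28 and -0.17. The block called WFS1 and RNF149 lower there (FDR 0.000343 and 0.00175).

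Among the mRNAs that the study followed by qPCR along gradients are 4 that it used with puromycin, a drug that releases ribosomes. They gave 1 call. RPS21, a ribosomal protein, was measured at 648, 717, 1338 and 940 CPM in control replicates and at 532, 430, 670 and 618 CPM in knockdown replicates. The groups overlapped, and replicates 3 and 4 were higher with both siRNAs (log2 -0.70, SE 0.23, FDR 0.0418). Within each replicate number the knockdown value was lower, and the block kept the call (FDR 2.32e-05). The call was lost without control replicate 3 (log2 -0.41, FDR 0.108) or 4, without knockdown replicate 1, 2 or 4 (FDR 0.0689 to 0.102), and with library totals. RAB12 and STX2, both of vesicle traffic, had log2 fold changes of 0.46 (FDR 0.0764) and 0.21 (FDR 0.362). TIMM13, a mitochondrial import chaperone, ranged from 48.1 to 189 CPM in control and from 74.8 to 218 CPM in knockdown libraries (log2 0.44, FDR 0.494). With the block RAB12, STX2 and TIMM13 were called higher (FDR 5.61e-05, 0.0355 and 2.87e-05). The difference from input was called for 1 of the 4, STX2 (0.79, SE 0.21, FDR 0.0211), which fell in input (log2 -0.59, FDR 0.00439). For RAB12 the difference was 0.69 (FDR 0.0507), called with the block (FDR 0.00603).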

How the data were processed

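The deposited files hold counts, unnormalised whole numbers per gene symbol, 1 file a library. Per the study's methods and the submitters' processing notes, the authors precipitated gradient RNA with LiCl, made libraries with a stranded mRNA kit, used bcl2fastq 2.0, aligned with TopHat2 to hg19 and counted with HTSeq. The strand option was not given in the sources used here. The rows name 55765 symbols. Of these, 33529 matched GENCODE release 44 on GRCh37 directly and 1847 through an older symbol.

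Here the 8 subpolysomal libraries were fitted alone with edgeR 4.0.16 (filterByExpr, TMM, quasi-likelihood F-test, two-sided, Benjamini-Hochberg FDR over all genes tested; R 4.3.3, limma 3.58.1), and the difference from input in 16 libraries. Genes named are the 8 largest changes each way with mean CPM of 10 or more whose libraries do not overlap, the 2 largest each way in each of 30 gene lists, 4 each way for the difference from input, and fixed names. Others are marked. The members and lists were chosen with earlier results of these data known.

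Same-numbered libraries deviated together across the siRNAs (correlations of 0.678, 0.781, 0.683 and 0.642). Differently numbered libraries of the same depth pair did so less (0.331 to 0.542). Those from different depth pairs deviated in opposite ways (-0.703 to -0.467). Within each depth pair, same-numbered libraries thus deviated together more than differently numbered ones. Whether depth or something else separates replicates 1 and 2 from 3 and 4 was not tested. The titles give replicate numbers only, so pairing is not settled and the block is given as an alternative. The blocked value stands beside a named gene whose call it changed and a list count that it moved by over 1.5 times. Alternatives were DESeq2 1.42.0, RLE, library totals, no filter, the block, all gradient libraries, thinned counts, replicates 1 and 2 or 3 and 4 alone and leaving out each library. Polysomal libraries entered only the fit over all gradient libraries, since replicate 3 of both siRNAs was judged to go against its labels there. TMM without ribosomal protein and mitochondrial genes was added after seeing the data. Scripts were tested on simulated data. The RIP and TNRC6 libraries and the authors' table of IP fold changes and p-values were not used.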

Additional observations from a re-analysis of the deposited data

Results flagged for a closer look

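Within groups of 4 libraries, 1 value stood far from the other 3 for 12 of the 216 gene and group combinations examined, and chance flags about 1 in 20 groups. Knockdown replicate 3 was the distant one for PVRL4 (85.2 CPM), EGR1 (125 CPM), HYOU1 (208 CPM) and NDUFB9 (148 CPM) on the high side and for PSMA1 (134 CPM) and SNHG10 (15.1 CPM) on the low side. Knockdown replicate 1 was distant for CTGF (11.9 CPM). Control replicate 4 was distant for DDN (17.0 CPM) and CCND2 (141 CPM), control replicate 3 for CCRN4L (30.5 CPM) and NDUFA1 (103 CPM), and control replicate 2 for RPS3A (6406 CPM).

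The effect of CNOT1 siRNA differed between subpolysomal RNA and input by an interaction term (edgeR, FDR below 0.05) for the genes named for it. On the log2 scale the subpolysomal effect was above the input effect for CNOT1 (2.29), SPG21 (1.21), TSPAN33 (1.20) and ARSB (1.18). It was below the input effect for HDHD3 (-1.53), WFS1 (-1.41), RNF149 (-1.21) and CCRN4L (-1.19). All 8 were also called with the replicate block. They were selected by this test in the same libraries, so neither call is further support.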

How the results depend on the processing

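No gene was called in opposite directions by any alternative and the 8-library or 16-library fit. The counts moved by more than 1.5 times with the replicate block (4279 higher and 4936 lower in subpolysomal RNA, 1337 higher and 1405 lower for the difference from input) and with library totals (4287 and 993, and 2291 and 409). DESeq2 gave 1479 genes with a higher effect than in input. Leaving out 1 library gave 1532 to 2206 higher and 1332 to 1941 lower genes in subpolysomal RNA, with 1332 lower without control replicate 1. For the difference from input it gave 518 to 1064 higher and 512 to 1138 lower genes, with 583 lower without input CNOT1 replicate 1, and 512 and 567 without input control replicates 3 and 4. TMM without ribosomal protein and mitochondrial genes gave 2218 and 2039, and 753 and 889.

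The counts of ribosomal protein and other TOP mRNAs called lower in the 8 subpolysomal libraries stayed within 1.5 times under each alternative, unlike those for the difference from input. Of named genes, directions turned only for values that were not called: RN7SL1 without control replicate 3 (0.38) or with replicates 1 and 2 alone (0.63), RN7SL2 in the same settings (0.36 and 0.39) and with library totals (0.049), and CCRN4L with library totals (0.0786). Leaving out 1 library gave RN7SL1 -0.63 to 0.38 and RN7SL2 -0.43 to 0.36. The causes were not tested. Depth limits genes under 1 CPM, of which 6.41% were called higher and 7.91% lower.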
